A study of Mus musculus with 18 samples.

Results

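Matrix metalloproteinases and their tissue inhibitors were examined as 10 genes, Mmp2, Mmp8, Mmp9, Mmp12, Mmp13, Mmp14, Mmp19, Timp1, Timp2 and Timp3, among the 18668 gene rows of the expression table. The genes were chosen by name, and all 10 were found and passed the filter on low values. RNA was taken from mouse BMDM (bone marrow-derived macrophages), cells that total marrow gives when it is cultured with the growth factor M-CSF. The donors were Apoe-/- mice and Apoe-/-/Treml4-/- double-knockout mice (DKO) of C57BL6 background. Every group thus lacked Apoe, the controls included, and the genotypes differed by design in Treml4. The study made the double mutants from Apoe-/- and Treml4-/- mice and intercrossed them for 10 generations, and it does not state littermate controls. Other differences between the lines therefore cannot be told apart from the loss of Treml4. Cells of each genotype were differentiated for 7 days and then left untreated or given oxidized low-density lipoprotein (oxLDL), the modified lipid particle that turns macrophages into foam cells, at 10 or 60 µg/ml (oxLDL 10 and oxLDL 60), which made 6 groups with 3 replicates each. The design text of the series gives 16 hours of exposure and PBS as the vehicle of the untreated cells, whereas a longer exposure is stated elsewhere by the study, and a protocol label also names LPS, which was not resolved. The age of the donors was not given in the labels.

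Matrix metalloproteinases are zinc-dependent proteases that cleave collagens, elastin, basement membrane and cell surface proteins. Most are secreted as inactive proenzymes, while the membrane-type enzymes are anchored at the cell surface. The tissue inhibitors of metalloproteinases (TIMPs) bind the active enzymes and block them, and the protease output of macrophages is known for its part in the thinning of the fibrous cap of atherosclerotic plaques. TIMP2 has a further role, since together with MMP14 at the cell surface it takes part in the activation of proMMP2.

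Among the 18 libraries, depth recovered from the table lay between 39.7 and 54.2 M reads, and 3 reads over 1 kb of transcript corresponded to at most 0.0755 RPKM (reads scaled to transcript length and library size). Treml4 lay between 1.86 and 8.39 RPKM in the Apoe-/- libraries and at 0.0116 RPKM or less in the DKO libraries, of which 8 listed it at 0. In 6 libraries, replicate 2 of Apoe-/- and replicate 3 of DKO at every treatment, the X-inactivation transcript Xist was present, and it was under 1 RPKM in the other 12. The labels did not give the sex of the donors, and each genotype comparison was therefore also fitted without these 6 libraries. Values of that fit are given below for the members called in it and for Mmp19, Timp1 and Mmp2. Macrophage markers had a high summed level throughout, 5560 to 12000 RPKM over 8 genes, of which Lyz2 made up most, while Mertk averaged 4.11 RPKM. Other cell types gave low sums, 31.4 to 85.1 RPKM over 10 neutrophil markers and 0.771 to 18.5 RPKM over 11 fibroblast and stromal markers, and the neutrophil marker Ly6g was at 0 in 15 of the libraries. In such bulk cultures, fewer cells of a type and less RNA per cell cannot be told apart.

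The members lie on 7 chromosomes of GRCm38. Mmp13 (chromosome 9, 7272514 to 7283333), Mmp12 (chromosome 9, 7344397 to 7360461) and Mmp8 (chromosome 9, 7558429 to 7568486) are neighbours within 296 kb on the forward strand. Mmp14 lies on chromosome 14 from 54431598 to 54442456, Mmp9 on chromosome 2 from 164940326 to 164955850, Mmp2 on chromosome 8 from 92827290 to 92853421 and Mmp19 on chromosome 10 from 128790910 to 128800827. Timp3 (chromosome 10, 86300412 to 86349505), Timp1 (chromosome X, 20870166 to 20874737) and Timp2 (chromosome 11, 118301061 to 118355411, reverse strand) complete the set. Exons of Mmp12 share bases with Mmp1b on the other strand, which was at 0.0301 RPKM or less. Exons of Mmp19 share bases with Tmem198b on the other strand, which lay between 2.38 and 3.28 RPKM, and although the libraries were stranded per the labels, the strand setting of the counting was not given, so how reads of that overlap were assigned is not known.

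Upstream sequence is shown for Mmp14, the member with the largest change with oxLDL, and for Mmp13, Mmp12 and Mmp8, the chromosome 9 neighbours, of which Mmp12 was called with oxLDL 60 while Mmp13 and Mmp8 were not. Each run holds the 250 bases before the annotated start in RefSeq on GRCm38.p6, written 5′ to 3′ on the forward strand, and 7 of the 10 members had an entry. Capitals mark exact matches, on either strand, to a set of 4 motifs. The AP-1 motif was searched as TGANTCA, and the ETS motif was searched as AGGAAG. The TATA box was searched as TATAAA, and the SP1 GC box was searched as GGGCGG. No match overlapped one of another motif.
Mmp14, chr14:54431348-54431597: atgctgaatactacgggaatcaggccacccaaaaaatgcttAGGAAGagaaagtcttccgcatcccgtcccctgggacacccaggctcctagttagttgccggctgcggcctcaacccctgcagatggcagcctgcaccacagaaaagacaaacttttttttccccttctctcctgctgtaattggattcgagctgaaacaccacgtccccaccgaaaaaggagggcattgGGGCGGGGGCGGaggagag
Mmp13, chr9:7272264-7272513: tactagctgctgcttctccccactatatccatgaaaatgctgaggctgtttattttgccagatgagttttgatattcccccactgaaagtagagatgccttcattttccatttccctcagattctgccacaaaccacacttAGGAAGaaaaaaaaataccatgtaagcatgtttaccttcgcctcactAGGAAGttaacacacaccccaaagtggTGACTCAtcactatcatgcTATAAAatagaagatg
Mmp12, chr9:7344147-7344396: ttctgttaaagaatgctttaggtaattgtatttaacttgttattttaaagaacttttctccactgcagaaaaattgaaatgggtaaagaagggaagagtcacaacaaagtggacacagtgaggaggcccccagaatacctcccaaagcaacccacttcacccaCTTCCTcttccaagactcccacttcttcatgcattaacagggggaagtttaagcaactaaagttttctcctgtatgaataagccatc
Mmp8, chr9:7558179-7558428: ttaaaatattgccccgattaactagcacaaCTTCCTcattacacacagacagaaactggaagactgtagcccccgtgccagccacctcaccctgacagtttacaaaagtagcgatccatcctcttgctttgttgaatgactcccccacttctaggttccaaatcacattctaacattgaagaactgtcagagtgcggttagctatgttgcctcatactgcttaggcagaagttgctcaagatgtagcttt

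In these windows Mmp13 held an AP-1 match 35 to 29 bases before the start, a TATA match 16 to 11 bases before it and 2 ETS matches. Mmp12 held 1 ETS match, 87 to 82 bases before the start, and Mmp8 held 1 at 220 to 215 bases. Mmp14 held 2 adjacent GC boxes, from 19 to 8 bases before the start, and 1 ETS match at 209 to 204 bases, and its window had 55.2% G or C against 40.0% for Mmp12. A second annotated start of Mmp12, with a window from 7347124 to 7347373, held 1 AP-1 match. Among the inhibitors, Timp1, Timp2 and Timp3 each held 1 GC box within the last 37 bases, and Timp1 held 2 ETS matches and Timp3 held 1. Over 32851 windows of the same length, 6.75% held AP-1, 29.5% ETS, 12.4% the TATA box and 32.7% the GC box. These are matches of letters, not sites shown to be bound.

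By level, in RPKM, which is scaled to transcript length, Mmp12 was the most abundant member, with 40.6 to 389 RPKM and a mean of 161 RPKM over the 18 libraries. Timp2, Mmp14, Mmp13, Mmp8 and Mmp19 followed with means of 18.1, 16.7, 15.6, 12.9 and 11.1 RPKM. Timp1 averaged 6.21 RPKM, Timp3 1.72 RPKM, Mmp9 0.993 RPKM and Mmp2 0.519 RPKM. The lowest library held about 17 reads for Mmp2, 44 for Timp3 and 62 each for Timp1 and Mmp9. The range within a gene was widest for Mmp14, whose highest library was 35.6 times its lowest, and narrowest for Timp2, at 1.44 times.

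**Figure D1:**
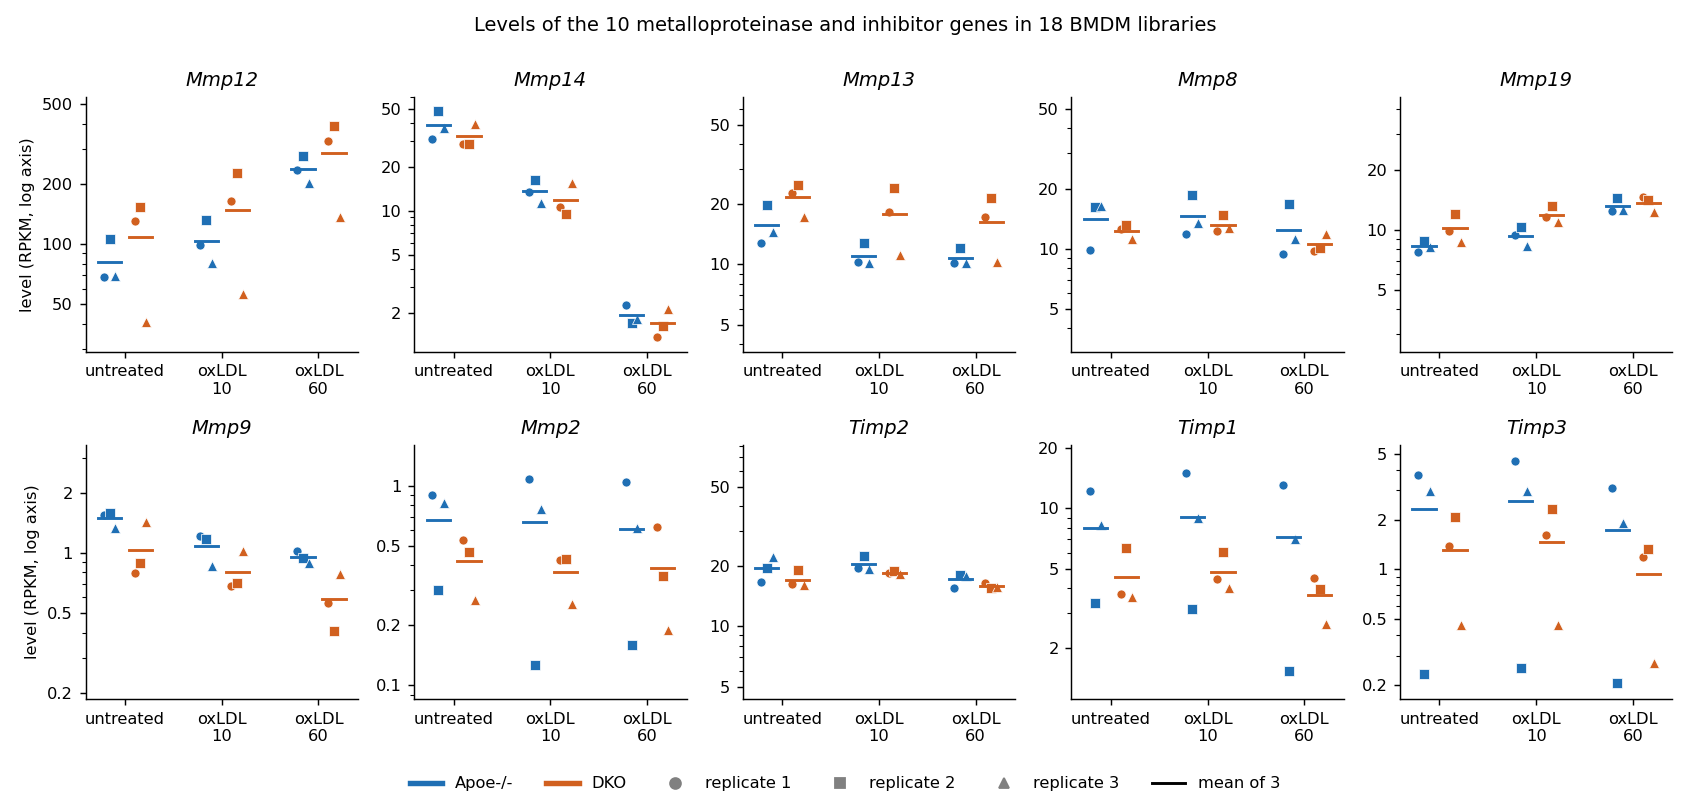
Level of each member in RPKM (log axis) in the 6 groups, with 1 point per library, point shape by replicate number, colour by genotype and a bar for the mean of 3 replicates. Mmp14 falls stepwise from 28.7 RPKM or more to 2.27 RPKM or less in both genotypes, Mmp12 rises, and Timp1, Timp3 and Mmp2 spread by replicate number, most widely in Apoe-/- cells.

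The first question was what foam cell loading with oxLDL 60 did to the family. In Apoe-/- cells 4 of the 10 members changed, with Mmp12 and Mmp19 higher and Mmp14 and Mmp9 lower, and in DKO cells 3 changed, with Mmp12 higher and Mmp14 and Mmp9 lower. A gene was called at a limma p under 0.05 after Benjamini-Hochberg (BH) adjustment and a change of at least 1.4-fold, and 13.9% of the 12838 genes tested were called in Apoe-/- cells, 7.13% higher and 6.78% lower. In DKO cells 12.2% were called, 4.87% higher and 7.31% lower. The median log2 fold change of the 10 members was -0.30 in Apoe-/- and -0.25 in DKO cells, against 0.061 and -0.063 over all genes tested. The macrophage markers also moved. Their sum was 8380 to 11800 RPKM in untreated and 5560 to 8480 RPKM in oxLDL 60 libraries of both genotypes, with Cd14, Lyz2 and Fcgr1 lower and Mertk higher in both and Adgre1 lower in Apoe-/- cells. Lyz2 made up most of this sum, with a mean of 6800 RPKM over the 18 libraries against 553 RPKM or less for each other marker. Over the 18 libraries r of the log2 level with the sum was 0.829 for Mmp14, 0.811 for Mmp9 and -0.747 for Mmp12. These values thus describe mainly Lyz2, and the part of the markers in the changes of the members was not tested.

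Mmp14, the membrane-type metalloproteinase that acts at the cell surface on fibrillar collagen and on proMMP2, showed the largest change. Untreated Apoe-/- replicates 1 to 3 held 31.2, 48.0 and 37.1 RPKM, and with oxLDL 60 they held 2.27, 1.69 and 1.82 RPKM. Untreated DKO replicates held 28.8, 28.7 and 39.4 RPKM and 1.35, 1.62 and 2.10 RPKM with oxLDL 60. No treated library came near an untreated one. The mean fell from 38.8 ± 8.56 to 1.93 ± 0.303 RPKM (SD, n = 3) in Apoe-/- cells. On the log2 scale this difference was -4.25 (SE 0.207, limma BH-adjusted p = 3.48e-10). In DKO cells it fell from 32.3 ± 6.14 to 1.69 ± 0.382 RPKM (SD, n = 3), and the difference on the log2 scale was -4.18 (SE 0.207, limma BH-adjusted p = 5.36e-10). Taken by replicate number, the untreated level was 13.7 to 28.4 times the oxLDL 60 level in Apoe-/- cells and 17.7 to 21.3 times in DKO cells. Under 17 alternatives of the analysis the fold change stayed between -4.40 and -3.62 and the limma BH-adjusted p was at most 1.38e-05 in either genotype.

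Mmp12, the macrophage elastase, rose. Its level went from 68.6, 107 and 69.4 RPKM to 234, 278 and 202 RPKM in Apoe-/- replicates 1 to 3. The DKO replicates went from 131, 153 and 40.6 RPKM to 329, 389 and 136 RPKM. In Apoe-/- cells the groups did not overlap, whereas in DKO cells replicate 3 was low at every treatment and its oxLDL 60 level lay below that of untreated replicate 2. The log2 fold change was 1.56 (SE 0.508, limma BH-adjusted p = 0.0275) in Apoe-/- and 1.48 (SE 0.508, limma BH-adjusted p = 0.0415) in DKO cells. By replicate number the rise was 2.61- to 3.41-fold in Apoe-/- and 2.52- to 3.36-fold in DKO cells, in 6 of 6 pairs. With the replicate number as a block within each genotype the SE fell to 0.090, with limma BH-adjusted p of 6.29e-10 and 1.48e-09. Without the block the call rested on single libraries. It was lost in Apoe-/- cells without untreated replicate 1 or 3 or oxLDL 60 replicate 1 or 2 (limma BH-adjusted p from 0.0641 to 0.0871), and in DKO cells without untreated replicate 3 or oxLDL 60 replicate 1 or 2 (0.126 to 0.214). Without DKO untreated replicate 3 the log2 fold change in DKO cells was 0.88.

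The gelatinases MMP2 and MMP9 cleave denatured collagen and basement membrane. Mmp9 was at 1.55, 1.59 and 1.33 RPKM in untreated Apoe-/- replicates and after oxLDL 60 at 1.02, 0.943 and 0.891 RPKM. In DKO cells it went from 0.795, 0.889 and 1.42 RPKM to 0.563, 0.407 and 0.789 RPKM, and in neither genotype did the groups overlap. The log2 fold change of Mmp9 was -0.60 in Apoe-/- cells (SE 0.215, limma BH-adjusted p = 0.0457) and -0.73 in DKO cells (SE 0.215, limma BH-adjusted p = 0.019). Without the block both calls rested on single libraries, since the limma BH-adjusted p reached 0.0505 to 0.119 when any 1 of the 6 Apoe-/- libraries was left out, and 0.108 to 0.110 without DKO oxLDL 60 replicate 2 or DKO untreated replicate 3. With the replicate block the SE was 0.114 and the limma BH-adjusted p was 5.02e-04 in Apoe-/- and 8.75e-05 in DKO cells. The pseudocount also decided these calls, since with a pseudocount of 1 the log2 fold changes, -0.35 and -0.36, were below the fold limit in both genotypes, and with 0.01 the call was lost in Apoe-/- cells (limma BH-adjusted p = 0.053). Within replicate numbers the oxLDL 60 level was 0.591 to 0.669 of the untreated level in Apoe-/- and 0.457 to 0.708 in DKO cells. Mmp2 stayed at or below 1.08 RPKM in every library and was not called (limma BH-adjusted p = 0.775 in Apoe-/- and 0.882 in DKO cells).

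Mmp19, a secreted metalloproteinase of basement membrane substrates, went from 7.76, 8.83 and 8.23 RPKM to 12.4, 14.4 and 12.6 RPKM in Apoe-/- replicates. The DKO replicates went from 9.91, 12.0 and 8.73 RPKM to 14.6, 14.2 and 12.3 RPKM. Treated libraries lay above untreated ones in both genotypes. The log2 fold change was 0.66 (SE 0.113, limma BH-adjusted p = 2.57e-04) in Apoe-/- cells and 0.43 (SE 0.113, limma BH-adjusted p = 0.00969) in DKO cells, where it was below the fold limit. It passed the limit in DKO cells after median-ratio rescaling of the libraries, at 0.50, which made the calls there 2 higher and 2 lower.

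The collagenases MMP8 and MMP13 start the breakdown of fibrillar collagen. Mmp13 stood at 12.8, 19.9 and 14.6 RPKM in untreated Apoe-/- replicates and after oxLDL 60 at 10.2, 12.0 and 10.1 RPKM, with no overlap. In DKO cells it stood at 22.8, 24.9 and 17.3 RPKM and at 17.3, 21.5 and 10.3 RPKM, with overlap. The oxLDL 60 level was below the untreated one of the same number in 6 of 6 pairs, at 0.596 to 0.864 of it. The log2 fold change was -0.52 in Apoe-/- (SE 0.265, limma BH-adjusted p = 0.152) and -0.45 in DKO cells (SE 0.265, limma BH-adjusted p = 0.239), so Mmp13 was not called. With the replicate block, under which 15.3% of all genes were called in Apoe-/- cells, Mmp13 was called there too (SE 0.093, limma BH-adjusted p = 2.6e-04), and in DKO cells it had a limma BH-adjusted p of 0.0011 but a change below the fold limit. Mmp8 lay between 9.47 and 18.5 RPKM in all libraries, with log2 fold changes of -0.19 and -0.22 and limma BH-adjusted p of 0.547 and 0.500.

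None of the 3 inhibitors was called with oxLDL 60 in either genotype, and none had an unadjusted limma p under 0.05. Timp2, the most abundant and steadiest inhibitor, was at 16.7, 19.7 and 22.3 RPKM in untreated Apoe-/- cells and after oxLDL 60 at 15.6, 18.1 and 17.9 RPKM. In DKO cells it was at 16.2, 19.2 and 16.0 RPKM and then at 16.5, 15.6 and 15.7 RPKM. The 95% interval of its log2 fold change ran from -0.39 to 0.022 in Apoe-/- cells and from -0.30 to 0.10 in DKO cells. Intervals were far wider for Timp1, from -1.76 to 0.93 and from -1.62 to 1.07, and for Timp3, from -2.62 to 1.96 and from -2.76 to 1.82. For the latter pair the replicates stood apart at every treatment, most widely in Apoe-/- cells, as described further on. With the replicate block Timp3 had a log2 fold change of -0.33 in Apoe-/- (limma BH-adjusted p = 0.0284) and -0.47 in DKO cells (limma BH-adjusted p = 0.00353), both below the fold limit.

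**Figure D2:**
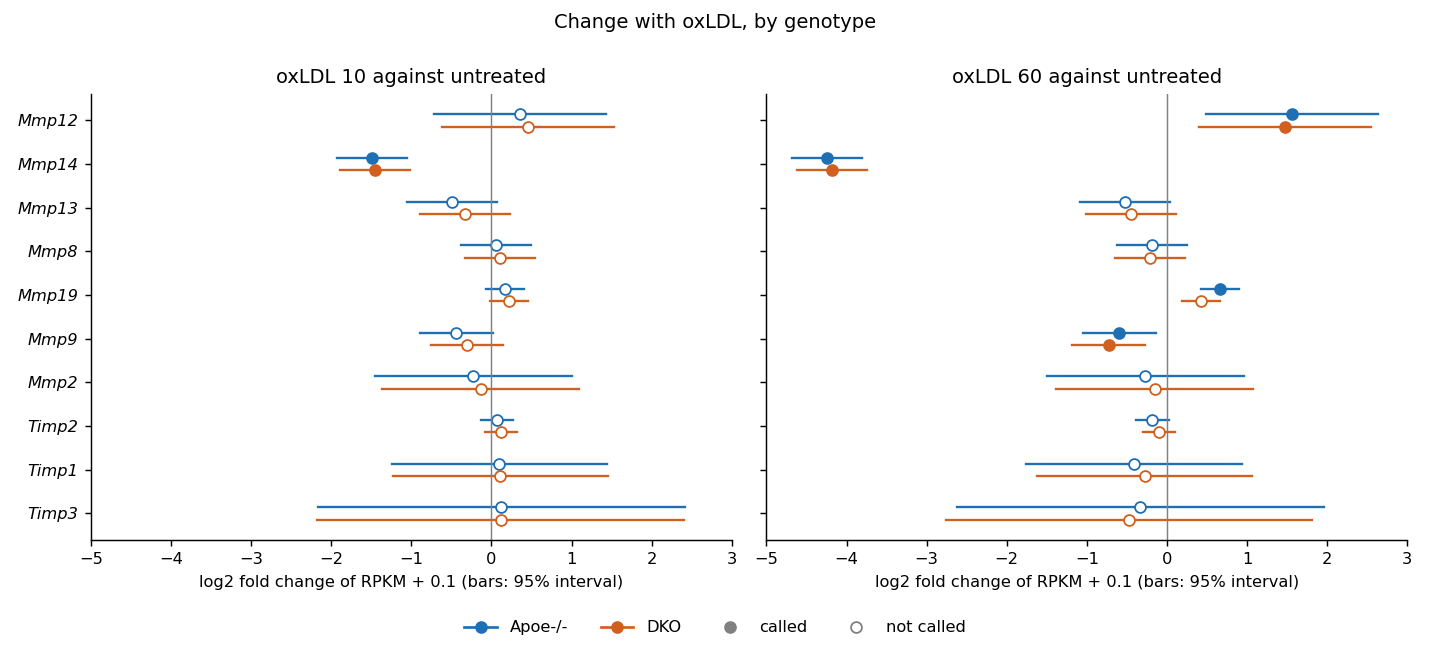
Log2 fold change of RPKM + 0.1 against untreated cells for each member with oxLDL 10 (left) and oxLDL 60 (right), by genotype, with 95% intervals from limma. Filled points were called. Mmp14 is called at both amounts in both genotypes, and Mmp12 and Mmp9 are called in both genotypes with oxLDL 60.

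The lower amount of oxLDL tested how much of this response was already present. With oxLDL 10 only Mmp14 was called, in both genotypes. Over all genes, 2.79% were called in Apoe-/- cells, 0.748% higher and 2.04% lower, and 2.26% in DKO cells, 0.569% higher and 1.69% lower. Mmp14 held 13.4, 16.2 and 11.4 RPKM in Apoe-/- replicates and 10.5, 9.49 and 15.5 RPKM in DKO replicates, all below the untreated libraries. Its log2 fold change was -1.49 (SE 0.207, limma BH-adjusted p = 4.03e-04) in Apoe-/- and -1.45 (SE 0.207, limma BH-adjusted p = 6.29e-04) in DKO cells. Mmp12 with oxLDL 10 was at 99.2, 132 and 80.5 RPKM in Apoe-/- and 164, 227 and 56.0 RPKM in DKO replicates. These groups overlapped the untreated ones (limma BH-adjusted p = 0.738 and 0.842), although each replicate was above the untreated one of its number, by 1.16- to 1.48-fold. Mmp13 with oxLDL 10 in Apoe-/- cells was at 10.3, 12.8 and 10.1 RPKM, with a log2 fold change of -0.49 (limma BH-adjusted p = 0.295), and it was called with the replicate block (limma BH-adjusted p = 0.00199), as were 4.11% of all genes. Mmp9 fell short of a call (limma BH-adjusted p = 0.242 in Apoe-/- and 0.654 in DKO cells), with log2 fold changes of -0.44 and -0.31, and so did Mmp19 (0.393 and 0.440), with 0.17 and 0.22.

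Between the amounts of oxLDL, 6.46% of genes were called in Apoe-/- cells, 2.91% higher and 3.54% lower with oxLDL 60, and 5.66% in DKO cells, 1.92% higher and 3.74% lower. Median-ratio rescaling turned the DKO split over all genes from 246 higher and 480 lower to 366 higher and 352 lower. Mmp14 fell further in both genotypes, by 2.76 (SE 0.207, limma BH-adjusted p = 2.76e-07) and 2.73 (SE 0.207, limma BH-adjusted p = 5.05e-07) on the log2 scale. In order of level, Mmp14 thus ran from untreated through oxLDL 10 to oxLDL 60, with no overlap between treatments, while Apoe-/- and DKO overlapped at each treatment. Mmp19 was higher with oxLDL 60 than with oxLDL 10 in Apoe-/- cells (log2 fold change 0.49, SE 0.113, limma BH-adjusted p = 0.00738), a call that was lost on the fold limit without oxLDL 10 replicate 3 (0.40) or oxLDL 60 replicate 2 (0.42). Mmp12 had log2 fold changes of 1.21 in Apoe-/- (limma BH-adjusted p = 0.140) and 1.02 in DKO cells (limma BH-adjusted p = 0.199), and it was called in both with the replicate block (6.8e-08 and 5.2e-07), under which 7.91% and 7% of all genes were called. Without the Xist-positive libraries Mmp12 was also called in both, with 1.28 in Apoe-/- (limma BH-adjusted p = 3.7e-05) and 0.89 in DKO cells (limma BH-adjusted p = 9.61e-04). In that fit 6.62% and 6.12% of all genes were called. In Apoe-/- cells Mmp12 was called as well when only the groups compared were fitted (limma BH-adjusted p = 0.00536). The block added Timp1 in Apoe-/- cells (log2 fold change -0.51, limma BH-adjusted p = 0.0434) and Timp3 in DKO cells (-0.59, limma BH-adjusted p = 0.00104). Timp2 was lower with oxLDL 60 than with oxLDL 10 without overlap in either genotype, with log2 fold changes of -0.25 and -0.22, and was not called (limma BH-adjusted p = 0.102 and 0.141).

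**Figure D3:**
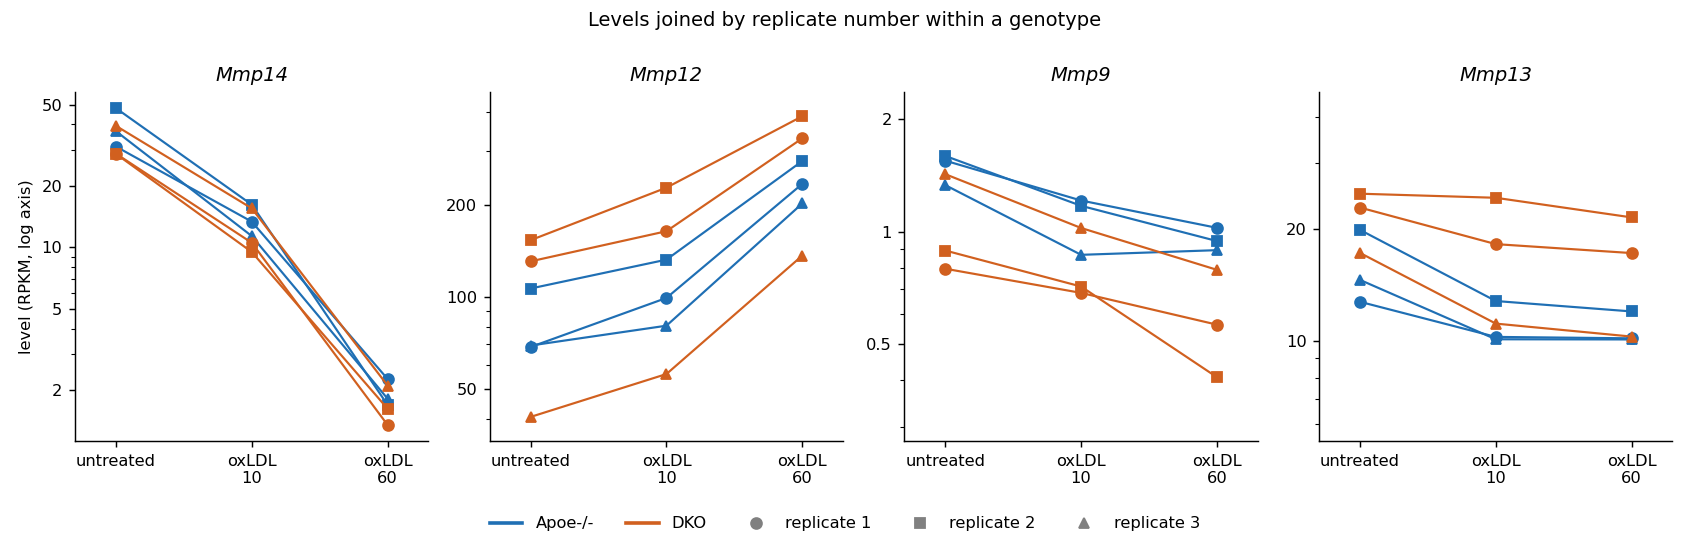
Levels of Mmp14, Mmp12, Mmp9 and Mmp13 in RPKM (log axis) by treatment, with lines joining libraries of the same genotype and replicate number. All 6 lines of Mmp14 fall and all 6 of Mmp12 rise, with DKO replicate 2 highest and DKO replicate 3 lowest for Mmp12 at every treatment.

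The share of the members in their summed RPKM moved with these changes. Mmp12 made up 38.3% to 47.4% of the sum over the 10 members in untreated Apoe-/- libraries and 75.9% to 80.9% with oxLDL 60. In DKO libraries its share went from between 29.2% and 58.7% to between 70.9% and 84.9%. Mmp14 went from 18.8% to 21.4% of the sum in untreated Apoe-/- libraries to 0.493% to 0.751%. The ratio of Mmp14 to Timp2, the pair that acts on proMMP2, was 1.86, 2.44 and 1.66 in untreated Apoe-/- replicates and 0.145, 0.0937 and 0.102 with oxLDL 60. In DKO replicates it was 1.77, 1.5 and 2.46 and then 0.0816, 0.104 and 0.134. Untreated cells thus held more Mmp14 than Timp2 RNA per length in each library, and with oxLDL 60 they held less. The ratio of Mmp9 to Timp1 was 0.126 to 0.472 in untreated and 0.0786 to 0.610 in oxLDL 60 Apoe-/- libraries, which overlapped.

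Whether DKO cells, which lack Treml4, differed from Apoe-/- cells in the family was tested at each treatment. No member was called between DKO and Apoe-/- cells by limma, where 0.21% of genes were called in untreated cells, 0.0857% with oxLDL 10 and 0.125% with oxLDL 60. At an unadjusted limma p under 0.05 there were 2 of the 10 members in untreated cells, 2 with oxLDL 10 and 1 with oxLDL 60, where 17.3%, 9.75% and 7.88% of all genes tested passed the same limit. Mmp9 had log2 fold changes of -0.52 (SE 0.215, limma BH-adjusted p = 0.235), -0.39 (0.559) and -0.65 (0.503) in that order. Its groups overlapped in untreated cells, where DKO replicate 3 held 1.42 RPKM, and did not overlap with oxLDL 60, where the highest DKO library held 0.789 and the lowest Apoe-/- library 0.891 RPKM. Mmp13 was 0.47, 0.62 and 0.54 higher in DKO cells on the log2 scale (SE 0.265, limma BH-adjusted p = 0.370, 0.488 and 0.637), and its groups overlapped at each treatment. Mmp19 was 0.29, 0.34 and 0.057 higher (SE 0.113, limma BH-adjusted p = 0.217, 0.403 and 0.918), and it did not overlap with oxLDL 10, where the highest Apoe-/- library held 10.3 and the lowest DKO library 10.9 RPKM. Nor did Timp2 with oxLDL 10, where the lowest Apoe-/- library held 19.3 and the highest DKO library 18.9 RPKM (log2 fold change -0.14, limma BH-adjusted p = 0.639). The share of all genes without overlap is not given, so these separations are descriptions. For Mmp12 the differences were 0.23, 0.33 and 0.14 with an SE of 0.508, and for Mmp14 with oxLDL 60 the difference was -0.19 with a 95% interval from -0.62 to 0.25. With libraries of the same genotype and replicate number blocked, no member was called at any treatment, against 0.327%, 0.0857% and 0.109% of all genes.

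These comparisons depended on the 6 Xist-positive libraries. Without them each group held 2 libraries, of the same replicate numbers at every treatment, and 4 members were called in untreated cells, 2 with oxLDL 10 and 3 with oxLDL 60. The fit had no replicate block, so it counted libraries of the same replicate number as independent, and its p-values do not account for the shared numbers. The treatments thus do not repeat the comparison in new replicates. Of the 12724 genes tested in this fit, 2.43%, 0.849% and 0.589% were called in that order, so the calls over all genes rose as well. Mmp12 was then 1.033, 1.11 and 0.72 higher in DKO cells on the log2 scale (SE 0.146, limma BH-adjusted p = 0.00226, 0.00196 and 0.042), and Mmp13 was 0.80, 1.04 and 0.92 higher (SE 0.128, limma BH-adjusted p = 0.00423, 0.00126 and 0.00493). Mmp9 was 0.71 lower in untreated cells by this fit, a log2 fold change of -0.71 (SE 0.182, limma BH-adjusted p = 0.0403), and -0.86 with oxLDL 60 (limma BH-adjusted p = 0.0492), while with oxLDL 10 it was -0.50 (limma BH-adjusted p = 0.258). Mmp19 was 0.44, 0.47 and 0.20 higher (limma BH-adjusted p = 0.0289, 0.0488 and 0.631), below the fold limit and so not called. Timp1, at -1.04, -1.15 and -1.16, and Mmp2, at -0.69, -0.95 and -0.66, were not called (limma BH-adjusted p of 0.0623 or more). Timp3 was called in untreated cells (-0.93, SE 0.249, limma BH-adjusted p = 0.0471), where the difference over all libraries was -0.36 (SE 1.082, limma BH-adjusted p = 0.881). In the libraries kept for it the sum of the fibroblast and stromal markers, described further on, was 17.2 and 11.4 RPKM in Apoe-/- and 5.27 and 7.43 RPKM in DKO cells, and its part in this difference was not tested. When all 18 were fitted and Xist status entered as a covariate, no member was called at any treatment, against 1.34%, 0.584% and 0.382% of all genes. Each group held 1 Xist-positive library, so the covariate left every log2 fold change as in the main fit, for Mmp12 at 0.226, 0.326 and 0.138. It also set 1 Xist effect for both genotypes, so it does not test the calls made without these libraries. In the levels, DKO replicates 1 and 2 held 131 and 153 RPKM of Mmp12 when untreated, and the Xist-positive DKO replicate 3 held 40.6 RPKM, below every Apoe-/- library, whereas the Xist-positive Apoe-/- replicate 2 was the highest of its group at 107 RPKM.

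**Figure D4:**
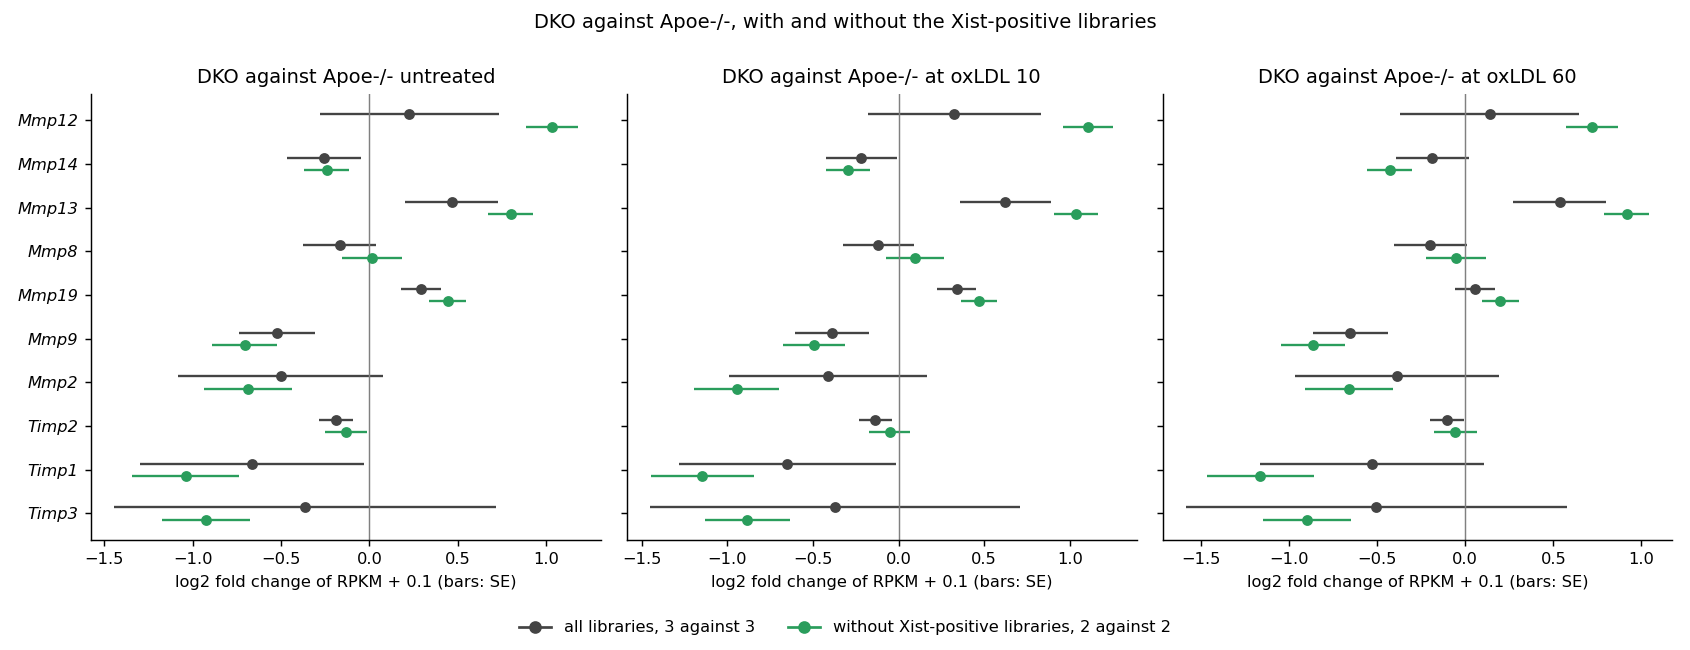
Log2 fold change of DKO against Apoe-/- for each member in untreated, oxLDL 10 and oxLDL 60 cells, with all libraries (3 against 3) and without the Xist-positive libraries (2 against 2), with bars for the SE. Mmp12 and Mmp13 lie further to the right and Timp1 and Timp3 further to the left without these libraries.

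The response to oxLDL was compared between genotypes by the interaction term. No member was called, 0% of genes were called for oxLDL 10 and 0.0156% for oxLDL 60, and no member had an unadjusted limma p under 0.05 in either. With oxLDL 60 the members' interactions ranged from -0.23 for Mmp19 (SE 0.160, limma BH-adjusted p = 0.613) to 0.13 for Timp1 (SE 0.899, limma BH-adjusted p = 0.969). The median over all genes was -0.114, and rescaling moved it by 0.127. For Mmp14 the interaction was 0.070 with a 95% interval from -0.55 to 0.69, and for Mmp12 it was -0.088 with an interval from -1.61 to 1.43. With the replicate block the SE for oxLDL 60 fell to 0.188 for Mmp14, 0.127 for Mmp12, 0.098 for Mmp19 and 0.243 for Timp1. The limma BH-adjusted p was then 0.861, 0.727, 0.262 and 0.786, and no member was called, against 0.0389% of all genes.

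The levels of Timp1, Timp3 and Mmp2 differed between replicate numbers at every treatment, most widely in Apoe-/- cells. Timp1, a broad inhibitor of secreted metalloproteinases, stood at 12.3, 3.38 and 8.29 RPKM in untreated Apoe-/- replicates, while oxLDL 10 replicates held 15.0, 3.13 and 8.98 RPKM and oxLDL 60 replicates 13.0, 1.54 and 6.99 RPKM. Timp3, the inhibitor that binds to the extracellular matrix, stood at 3.70, 0.232 and 2.98 RPKM in the untreated Apoe-/- replicates, and its mean over treatments differed 16.4-fold between the highest and the lowest replicate number. In DKO cells Timp3 stood at 1.39, 2.08 and 0.463 RPKM when untreated, and the replicate means differed 4.82-fold. For Mmp2 these folds were 5.16 and 2.22, and for Timp1 they were 5.00 and 1.59. By comparison, they were 1.47 and 3.30 for Mmp12, 1.35 and 1.82 for Mmp13, 1.22 and 1.61 for Mmp9, 1.41 and 1.43 for Mmp14 and 1.16 and 1.08 for Timp2. In DKO cells Timp1 thus did not stand out from the other members. Timp3 in the 6 Xist-positive libraries was 0.205 to 0.463 RPKM and did not reach the 1.19 to 4.54 RPKM of the other 12, and Mmp2 was likewise separated, at 0.126 to 0.301 against 0.352 to 1.08 RPKM. The sum of the fibroblast and stromal markers separated the same libraries, at 0.771 to 1.79 against 4.74 to 18.5 RPKM. Xist status, this sum and replicate number therefore cannot be told apart here.

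The fibroblast and stromal markers moved with these members. Their sum was 17.2, 1.17 and 11.4 RPKM in untreated Apoe-/- replicates 1 to 3 and 5.27, 7.43 and 1.79 RPKM in untreated DKO replicates, and it kept this order with oxLDL 10. With oxLDL 60 the sums were 17.4, 0.771 and 9.70 RPKM and 4.74, 5.66 and 1.27 RPKM. Col1a1, a collagen chain made by fibroblasts, stood at 3.92, 0.203 and 2.50 RPKM in untreated Apoe-/- cells and at 1.00, 1.53 and 0.361 RPKM in untreated DKO cells. Of the 11 markers, Lum was at 0 in 11 libraries, Lepr in 9 and Thy1 in 3, and Dcn was above 0 in all, at 0.00935 to 0.605 RPKM. Over the 18 libraries, which come from 6 combinations of genotype and replicate number, Pearson's r of the log2 level with the log2 marker sum was 0.987 for Timp3, 0.948 for Mmp2 and 0.919 for Timp1. It was 0.025 for Mmp14, 0.031 for Mmp12 and -0.058 for Timp2. These are descriptions, and the part of stromal cells in the levels of Timp1, Timp3 and Mmp2 was not tested. None of the 7 stromal markers tested was called with oxLDL 60 in either genotype.

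**Figure D5:**
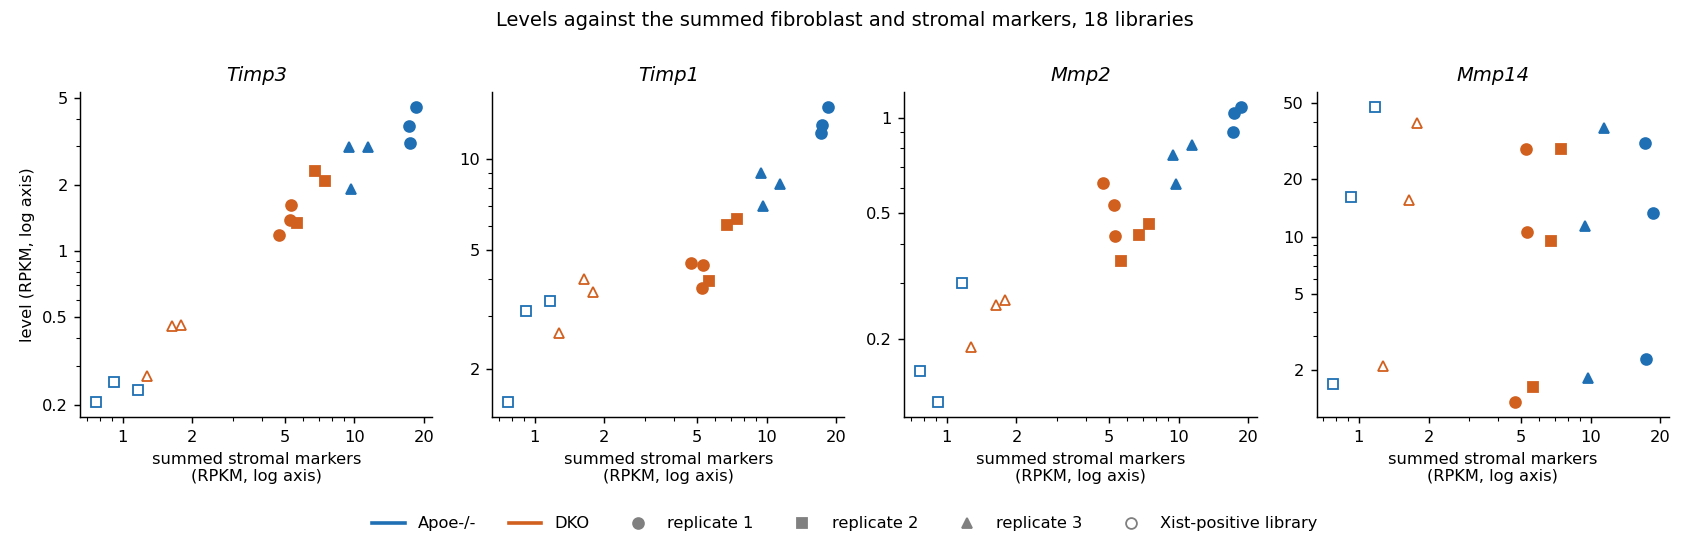
Level of Timp3, Timp1, Mmp2 and Mmp14 against the summed fibroblast and stromal markers, both in RPKM on log axes, for 18 libraries, with shape by replicate number, colour by genotype and open symbols for Xist-positive libraries. Timp3, Timp1 and Mmp2 rise with the marker sum, and Mmp14 is spread by treatment at every sum.

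Neutrophils are a known source of Mmp8 and Mmp9. Their markers gave sums of 31.6 to 49.2 RPKM in untreated Apoe-/- libraries and 31.4 to 44.1 RPKM with oxLDL 60, and 38.1 to 85.1 and 33.9 to 61.5 RPKM in DKO libraries. None of the 9 neutrophil markers tested was called with oxLDL 60. Across the 18 libraries r with this sum was -0.238 for Mmp8 and -0.458 for Mmp9, with Ly6g at 0.026 RPKM at most. Osteoclast markers summed to 11.4 to 24.9 RPKM, with Calcr at 0 in 17 libraries and Oscar in 14. Their r was 0.610 for Mmp12 and -0.242 for Mmp9. Of the 5 osteoclast markers tested, Ocstamp was called lower with oxLDL 60 in Apoe-/- cells, from a mean of 0.254 to 0.0866 RPKM (log2 fold change -0.85, SE 0.240, limma BH-adjusted p = 0.0121). Endothelial markers summed to 6.32 to 7.5 RPKM in untreated Apoe-/- libraries and 10.5 to 12.4 RPKM with oxLDL 60, and to 5.29 to 7.81 and 8.71 to 11.7 RPKM in DKO libraries, with Emcn at 0 in 16 libraries and Tek in 10. Of the 4 tested, Vwf was called higher in both genotypes (limma BH-adjusted p = 0.00284 and 0.00316), from means of 3.81 to 7.69 RPKM in Apoe-/- and 3.24 to 6.52 RPKM in DKO cells. The part of these cell types in the levels was not tested.

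The rest of the family was at low levels. Of 18 other genes listed (other Mmp genes, Timp4 and the membrane-anchored inhibitor Reck), 15 were in the table and 7 passed the filter. Mmp27 was the highest of these, at 1.75 to 5.14 RPKM, and Reck lay between 0.149 and 0.305 RPKM. With oxLDL 60, Mmp10, a stromelysin, was called higher in Apoe-/- cells, from a mean of 0.197 to 0.455 RPKM (limma BH-adjusted p = 0.0494). In DKO cells its mean went from 0.245 to 0.500 RPKM and it was not called. Mmp25, a membrane-anchored enzyme of leukocytes, was called lower in both genotypes, from 0.185 to 0.0495 RPKM in Apoe-/- and from 0.203 to 0.0480 RPKM in DKO cells. Each oxLDL 60 library held 0.0768 RPKM of Mmp25 or less, below the 0.1 RPKM of the filter, which the gene passed through untreated and oxLDL 10 libraries. The other 5 tested genes in Apoe-/- and 6 in DKO cells were not called. The list's median log2 fold change was -0.13 in Apoe-/- and -0.004 in DKO cells.

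Among 20 activators and partners of the metalloproteinases, 15 were tested. With oxLDL 60, 2 were called higher and 3 lower in Apoe-/- cells, while 3 were called lower and none higher in DKO cells, with medians of -0.10 and -0.040. Plau, the urokinase that generates plasmin, rose from 165 to 355 RPKM in Apoe-/- cells (log2 fold change 1.07, SE 0.355, limma BH-adjusted p = 0.0297), as did the integrin chain Itgb3. In DKO cells neither gene was called, although the mean of Plau went from 242 to 440 RPKM and its level was higher at each replicate number. Serpinb2, an inhibitor of urokinase, fell from 2.25 to 0.343 RPKM in Apoe-/- cells (log2 fold change -2.61, SE 0.427, limma BH-adjusted p = 1.67e-04), and DKO means fell from 1.61 to 0.254 RPKM. Lcn2, the lipocalin that binds MMP9, fell in both genotypes, with log2 fold changes of -1.21 and -1.31, and so did Itgav, with -0.56 and -0.54.

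Of 17 cathepsins, the lysosomal proteases, 2 were called higher and 1 lower in Apoe-/- cells and 1 higher and 1 lower in DKO cells, with medians of 0.15 and 0.034. Ctsk, a collagenolytic and elastolytic cathepsin, rose from 0.870 to 1.98 RPKM in Apoe-/- and from 0.858 to 1.67 RPKM in DKO cells (limma BH-adjusted p = 0.00179 and 0.00793). Ctsc fell in both, with log2 fold changes of -0.94 and -1.04, and Ctsd rose in Apoe-/- cells from 2243 to 3180 RPKM. Of 11 Adam and Adamts genes tested, none was called higher, and 4 were called lower in Apoe-/- and 3 in DKO cells, with medians of -0.11 and -0.15. Adam17, the sheddase that releases TNF, fell from 136 to 94.9 RPKM in Apoe-/- and from 131 to 91.7 RPKM in DKO cells, and Adam19 and Adamts4 fell in both, from means of 0.454 and 0.246 RPKM in untreated Apoe-/- cells, and Adam33 fell in Apoe-/- cells. Of 17 matrix substrates tested, Col18a1 and Vcan were called lower in both genotypes and none was called higher, with medians of -0.16 and -0.21.

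AP-1 and ETS factors, whose motif letters were searched above, were all tested, and 3 of 18 rose and 4 fell in each genotype, with medians of -0.045 and -0.14. Fos fell from 57.6, 64.6 and 61.6 RPKM to 21.9, 17.6 and 16.8 RPKM in Apoe-/- replicates and from 94.2, 86.8 and 95.5 RPKM to 28.0, 25.9 and 26.8 RPKM in DKO replicates. Its log2 fold changes were -1.71 and -1.77 (SE 0.088, limma BH-adjusted p = 5.35e-10 and 5.36e-10). Junb fell by 1.47 and 1.43 on the log2 scale, Ets2 by 0.61 and 0.60, and Spi1, the ETS factor PU.1 of the myeloid lineage, by 0.64 and 0.68. Atf3, Batf3 and Maff rose in both genotypes, Atf3 from 101 to 188 RPKM in Apoe-/- cells. Fos was also called higher in DKO than in Apoe-/- cells when untreated (log2 fold change 0.59, SE 0.088, limma BH-adjusted p = 0.00488) and with oxLDL 60 (0.53, SE 0.088, limma BH-adjusted p = 0.0154).

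For the 3 members called with oxLDL 60 in both genotypes, the tested genes with the most similar pattern were taken by Pearson's r of the log2 level over the 18 libraries. Mmp14 was closest to Vasp, Trex1 and Nadk, with r of 0.992, 0.992 and 0.990. Mmp12 was closest to Dio2, Gpnmb and Tspan13, with r of 0.954, 0.948 and 0.945, and Gpnmb, a glycoprotein of lipid-laden macrophages, averaged 898 RPKM. Mmp9 was closest to Hpgd, Spn and Rgs18, with r of 0.900, 0.899 and 0.898. Among the members themselves, Mmp12 and Mmp19 had an r of 0.863, Mmp14 and Mmp19 one of -0.817 and Timp1 and Timp3 one of 0.899. The 18 libraries share treatments and replicate numbers, so these values are descriptions.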

How the data were processed

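RNA abundance was measured by sequencing in 18 BMDM libraries, stranded and made from isolated total RNA per the labels; the study names poly(A) selection for RNA-seq libraries, though not separately for the oxLDL ones. The authors aligned reads with STAR to mm10, per the labels' processing notes, and deposited their RPKM (reads per gene length and library size) as 1 table; their workflow named Subread for counting and DESeq2 for testing, and the strand setting of the counting was not given in the sources used here. A count test could not be the main test on RPKM, so limma was used with the study's thresholds. The labels list several sequencing platforms. No replicate is said to share an animal with another group. The p-values of the main fit measure the spread between these samples, which without a block includes the spread between replicate numbers.

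From the deposited RPKM, depth was recovered from the steps that single reads leave in low values, with GENCODE M21 exon lengths (97.3% of symbols had one). Taking 14622 low values, 90.8% fell on a whole number of reads to within 0.05. Floors of 3 reads cover counting error only. Values were analysed as log2(RPKM + 0.1), which understates changes of low genes, for the 12838 genes that reached 0.1 RPKM in 3 or more libraries. limma 3.58.1 in R 4.3.3 (lmFit, eBayes with trend) was fitted with 1 mean per group to all 18 libraries, without a block, and was tested on simulated data. P-values were adjusted by Benjamini-Hochberg over all genes tested, and genes were called at an adjusted p under 0.05 and a fold change of at least 1.4. Alternatives were other pseudocounts and filters, rescaling, fits to fewer groups, robust eBayes, no fold limit, a replicate block, and fits with a term for, or without, the Xist-positive libraries (Xist of at least 1 RPKM), and without each library.

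Within a genotype, deviations from the group means correlated in all 18 pairs of libraries with the same replicate number (r 0.183 to 0.695, median 0.405), so the numbers were taken to pair libraries within a genotype. Between genotypes the median was -0.168 and no pairing was made.

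A spreadsheet had changed 24 symbols to dates, none of them a member. Promoter windows are from RefSeq (GRCm38.p6). Named were the 10 members, called genes of the lists, and, for members called with oxLDL 60 in both genotypes, the 3 genes of highest r. Levels of uncalled list genes are given for the markers, Mmp27 and Reck, of which Mmp27 and Reck were picked after their values were seen. The members and lists were chosen with earlier results of these data known. Python 3.11.15 with numpy 2.4.6, pandas 2.3.3, scipy 1.17.1 and matplotlib 3.10.9 was used.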

Additional observations from a re-analysis of the deposited data

How the results depend on the processing

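The decrease of Mmp14 with both amounts of oxLDL in both genotypes kept its direction and its call under every alternative run. The number of members called with oxLDL 60 in Apoe-/- cells, 4, was 2 without a filter on low values and 2 to 3 when 1 library was left out. In DKO cells it was 3, and 1 when only the groups compared were fitted and 1 to 4 when 1 library was left out. Mmp12 lost its oxLDL 60 call without a filter and with robust eBayes in both genotypes (limma BH-adjusted p from 0.0638 to 0.0908). In DKO cells Mmp12 also lost it when only the groups compared were fitted (0.098), while Mmp13 in Apoe-/- cells gained a call in that fit (0.0261). Mmp9 lost its call in Apoe-/- cells without a filter (0.0894) and in DKO cells when only the groups compared were fitted (0.0853). Between oxLDL 60 and oxLDL 10 in Apoe-/- cells 2 members were called, 1 with a pseudocount of 1, 1 to 2 when 1 library was left out, and 3 without the Xist-positive libraries or when only the groups compared were fitted, and the DKO count of 1 was 2 without the Xist-positive libraries. With the replicate block, counts rose from 4 to 5 for oxLDL 60 and from 1 to 2 for oxLDL 10 in Apoe-/- cells, from 2 to 4 for oxLDL 60 against oxLDL 10 in Apoe-/- and from 1 to 3 in DKO cells, and the block changed no call of a member beyond those named above. Without the Xist-positive libraries, members called between genotypes rose from 0 to 4 in untreated cells, 2 with oxLDL 10 and 3 with oxLDL 60, while the share of all genes called rose from 0.21% to 2.43%, from 0.0857% to 0.849% and from 0.125% to 0.589%.

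Log2 fold changes of uncalled members changed sign in some fits that left out 1 library, giving these ranges. With oxLDL 60 in Apoe-/- cells, Timp3 ran from -1.452 to 0.688, Timp1 from -1.059 to 0.438 and Mmp2 from -0.736 to 0.333, and in DKO cells Timp3 ran from -1.033 to 0.153 and Mmp2 from -0.487 to 0.174. With oxLDL 10 in DKO cells Mmp12 ran from -0.146 to 1.047. Between genotypes Mmp12 ran from -0.131 to 0.825 in untreated cells, from -0.089 to 0.92 with oxLDL 10 and from -0.154 to 0.601 with oxLDL 60, where Mmp2 ran from -0.988 to 0.081, Mmp8 from -0.373 to 0.032, Timp1 from -1.382 to 0.116 and Timp3 from -1.524 to 0.171. The Timp1 interaction with oxLDL 60 ran from -0.717 to 0.781 and was -0.123 without the Xist-positive libraries. The cause of these shifts was not tested. With a filter at 1 RPKM, Mmp2 did not pass and has no value. Over the members, 1768 values kept direction and call, 28 lost and 23 gained a call and 160 changed sign. The median-ratio rescaling moved all-gene splits with oxLDL 60 in DKO cells from 625 higher and 939 lower to 779 and 792.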
